A study of Oryza sativa with 4 samples.

Results

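The tonoplast intrinsic proteins (TIPs) are the aquaporins of the vacuole membrane, and 8 rice TIP loci were followed in leaves (Oryza sativa, ecotype given as Illmi) during 3 d without water. The members were chosen by locus identifier, TIP1-1, TIP1-2, TIP2-1, TIP2-2, TIP3-1, TIP3-2, TIP4-1 and TIP5;1, and every row of the gene table that carries one of these identifiers was taken. This gave 12 transcript rows of 44553 in the table, and 8 loci of 37869. Reads were found on 11 of the rows and 7 of the loci, and 9 rows of 5 loci had at least 100 in all. Names are spelled with a hyphen as in RefSeq (TIP1-1 stands for TIP1;1), except TIP5;1, for which RefSeq has no hyphen form. Wild type plants grown for 5 weeks gave 4 strand-specific RNA-seq libraries, namely well-watered leaves (the control) and leaves after 1, 2 and 3 d of water deficit, each from the pooled leaves of 10 plants in 4 pots. With a single library for each condition, differences carry no replicate check, and nothing was tested between samples. Control leaves were collected ahead of the treatment, and therefore drought and sampling day cannot be told apart. Mapped reads per library ranged between 52626188 and 60322263, with a median of 249 reads per row in the control and 98 at 3 d.

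Most of a mature leaf cell is vacuole, and water enters and leaves it through TIP channels, which also carry small neutral solutes. TIP1 proteins are the common TIPs of vegetative tissue, TIP2 proteins pass ammonia as well as water in Arabidopsis and wheat, and TIP3 proteins belong to the protein storage vacuoles of seeds. TIP5;1 is known from pollen in Arabidopsis.

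The values are read counts, scaled to 1000000 gene-mapped reads in each library (CPM). A ratio to the control is given on the log2 scale with the exact 95% interval of the 2 read counts, which covers counting error only, and 2-fold changes, a log2 ratio past 1 or -1, are written as a rise or a fall. A count of 0 allows up to 3 reads. In a bulk leaf library fewer cells of a type and less RNA per cell cannot be told apart. At 3 d the median row of the table had a log2 ratio of -0.83 (quartiles -2.36 and 0.64) and at 2 d of -0.38 (quartiles -1.43 and 0.65), so a value near 0 at 3 d already lay above most transcripts. Ratios were also taken with the scaling factors of edgeR (TMM) and DESeq2 (size factors), which set the bulk of the transcripts to no change, and without scaling. At 2 d and 3 d these factors move the log2 ratios up, TMM by 0.33 and 0.72, and size factors by 0.36 and 0.86, and at 1 d they move them by less than 0.01 in the other direction. Shares of all rows are given for the scaling to mapped reads only. At 3 d the upper quartile over all loci with at least 10 reads was 1.39 under TMM and 1.53 under size factors, so rises are more frequent there throughout.

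The leaf TIPs took 4 different courses. The TIP1 pair rose at 2 d and then dropped, TIP2-2 stayed within 2-fold of the control until 2 d and fell at 3 d, TIP4-1 rose at 1 d and fell at 2 d, and TIP3-1 was almost absent until 1 d and was many times higher from 2 d on. TIP2-1 and TIP3-2 had few reads in every library, and TIP5;1 had none. The plot of levels by day shows these courses side by side.

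**Figure D1:**
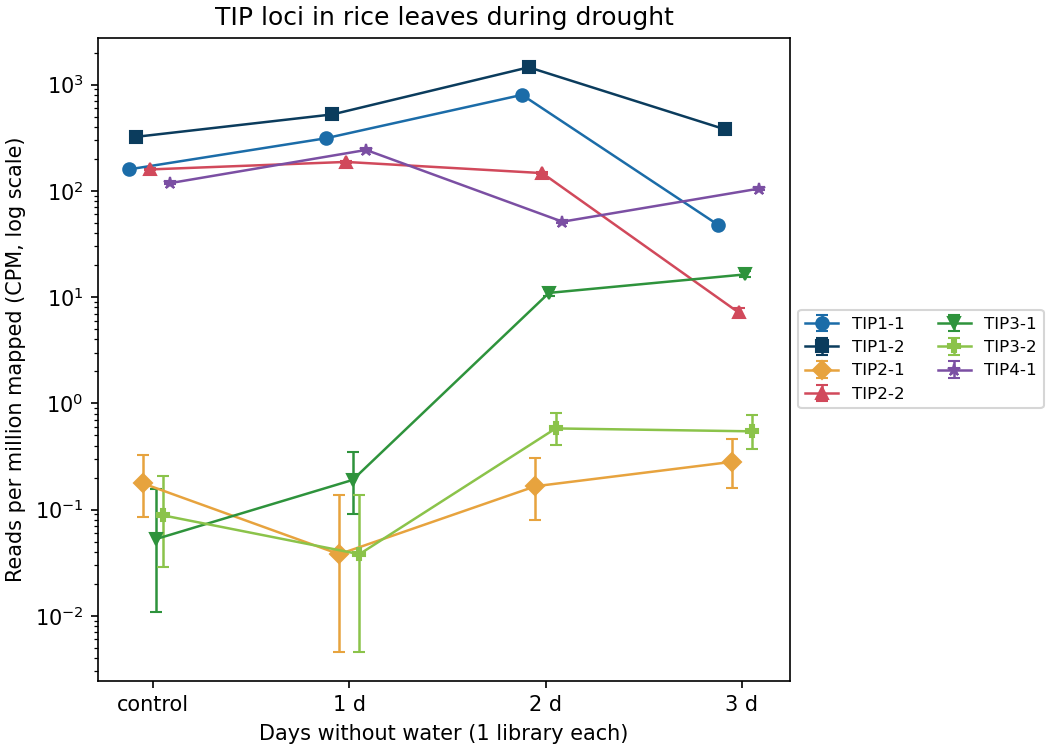
Level of each TIP locus (CPM on a log axis, all transcript rows of a locus summed) in the control and after 1, 2 and 3 d without water, 1 library each, with bars for the exact 95% counting interval. TIP1-2 had the most reads in every library, TIP3-1 stood at 16.3 CPM at 3 d and TIP2-2 at 7.17 CPM, and TIP5;1, with no reads, is not drawn.

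TIP1-2 (Os01t0975900, chromosome 1), annotated as similar to maize ZmTIP1-2, was the TIP with the most reads. It had 18283 reads in the control, then 27568, 87730 and 21560 reads after 1, 2 and 3 d, or 322.3, 523.8, 1454 and 378.8 CPM. The 2 d library stood far above the other 3, and the control was the lowest. The log2 ratio was 0.70 (0.67 to 0.73) at 1 d, 2.17 (2.15 to 2.20) at 2 d, a 4.51-fold rise, and 0.23 (0.20 to 0.26) at 3 d. The 3 d value comes to 0.95 under TMM and passes the 2-fold line under size factors (1.09). At 2 d 8.39% of all rows with reads in both libraries had a higher ratio than its first row (Os01t0975900-01). By reads per kilobase that row stood at rank 299 of the table in the control, 167 at 1 d, 30 at 2 d and 287 at 3 d.

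TIP1-1 (Os03t0146100, chromosome 3), whose annotation names a tonoplast water channel, followed TIP1-2 up but ended below the control. Its 3 rows together had 9043 reads in the control, then 16430, 48261 and 2713 reads after 1, 2 and 3 d, or 159.4, 312.2, 800.1 and 47.7 CPM. The 3 d library was the lowest and the 2 d library the highest. The log2 ratio was 0.97 (0.93 to 1.01) at 1 d, just under the 2-fold line, and 2.33 (2.29 to 2.36) at 2 d, a 5.02-fold rise. At 3 d it was -1.74 (-1.80 to -1.68), a fall of 3.34-fold, and 16.8-fold from the level at 2 d. The fall against the control is the one call on TIP1-1 that depends on scaling, since the log2 ratio is -1.02 under TMM but -0.88 under size factors.

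The TIP1 pair parted at 3 d. There were 2.02 TIP1-2 reads for each TIP1-1 read in the control (counting interval 1.97 to 2.07), 1.68 (1.65 to 1.71) at 1 d and 1.82 (1.80 to 1.84) at 2 d, against 7.95 (7.64 to 8.27) at 3 d. This ratio is taken within a library and does not change with scaling. Of 37334 rows with reads in the 3 drought libraries, 3.92% rose by at least 2-fold at 2 d over 1 d and fell by at least 2-fold at 3 d over 2 d, and both TIP1 loci did so. TIP1-1 had step log2 ratios of 1.36 and -4.07, and TIP1-2 of 1.47 and -1.94.

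TIP2-2 (Os06t0336200, chromosome 6), annotated as a delta-tonoplast intrinsic protein, had about as many reads in the control as TIP1-1 and far fewer at 3 d. It had 9014 reads in the control, then 9842, 8856 and 408 reads after 1, 2 and 3 d, or 158.9, 187.0, 146.8 and 7.17 CPM. The first 3 libraries lay close together, and the 3 d library stood far below them. The log2 ratio was 0.24 (0.19 to 0.28) at 1 d and -0.11 (-0.16 to -0.07) at 2 d. The sign at 2 d turns with scaling, to 0.21 under TMM and 0.25 under size factors. At 3 d it was -4.47 (-4.62 to -4.33), a fall of 22.2-fold against the control. This fall held under each of the 4 scalings, the smallest being -3.61 under size factors. At 3 d 94% of all rows had a higher ratio than its first row (Os06t0336200-01). By reads per kilobase that row went from rank 922 of the table in the control to rank 14459 at 3 d.

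TIP2-1 (Os02t0658100, chromosome 2) had 10 reads in the control, then 2, 10 and 16 reads after 1, 2 and 3 d. Its log2 ratio of -2.21 at 1 d passes the 2-fold line on 2 reads, and its interval (-5.44 to 0.02) reaches no change. The ratios at 2 d (-0.09, interval -1.51 to 1.33) and 3 d (0.67, interval -0.56 to 1.98) have intervals that include no change as well. Scaled to mapped reads, a change in TIP2-1 was not detectable at this depth. The 3 d ratio is 1.39 under TMM and 1.53 under size factors, and its interval moves up by the same amounts and then leaves out no change.

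TIP3-1 (Os10t0492600, chromosome 10), similar to maize ZmTIP3-1, had the largest rise of the family. It had 3 reads in the control, then 10, 660 and 930 reads after 1, 2 and 3 d, or 0.0529, 0.190, 10.9 and 16.3 CPM. The 2 d and 3 d libraries stood well above the other 2, and their counting intervals (10.1 to 11.8 and 15.3 to 17.4 CPM) do not overlap each other. The log2 ratio was 7.69 (6.14 to 9.97) at 2 d and 8.27 (6.72 to 10.55) at 3 d, a 309-fold rise that rests on 3 control reads. At 1 d it was 1.85 with an interval of -0.11 to 4.34 that includes no change. Against 1 d, whose count is firmer, the 2 d level was 57.6-fold higher (log2 interval 4.96 to 6.91). A higher ratio than that of TIP3-1 was found in 0.109% of all rows at 2 d and 0.148% at 3 d. Its level nevertheless stayed modest, at rank 6113 of the table by reads per kilobase at 3 d.

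TIP3-2 (Os04t0527900, chromosome 4), similar to maize ZmTIP3-2, rose on the same days with far fewer reads. It had 5 reads in the control, then 2, 35 and 31 reads after 1, 2 and 3 d. The log2 ratio was 2.72 (1.36 to 4.43) at 2 d and 2.63 (1.25 to 4.35) at 3 d. At 1 d it was -1.21 with an interval of -4.61 to 1.40. At 3 d there were 30.0 TIP3-1 reads for each TIP3-2 read (counting interval 21.0 to 44.4).

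Since TIP3 proteins are known from seeds, other seed genes were read beside them. Of 57 loci whose annotation names glutelin, prolamin or oleosin, 24 had no reads in any library and 20 had at least 10. At 2 d 9 of 18 with a ratio rose and 2 fell, beside 19.2% and 34.4% of all rows, with a median log2 ratio of 1.30. At 3 d 7 of 16 rose and 4 fell, beside 20.2% and 46.9% of all rows, with a median of 1.00. Under TMM 9 rose and 3 fell at 3 d, and under size factors 9 rose and 2 fell. Most of the rises at 2 d and at 3 d rest on 7 control reads or fewer, with 1 read at the lowest (Os02t0249800-01). Such loci reached the minimum of 10 reads only through their drought libraries, so these counts and medians lean towards rises. The shares over all rows have no such minimum and are not a like comparison. The 4 loci that fell at 3 d had at least 71 control reads. Their summed level was 225.9 CPM in the control, then 237.5, 213.2 and 176.9 CPM after 1, 2 and 3 d, most of it in every library from Os04t0537900-01, a vacuolar enzyme that processes glutelin. The glutelin family locus Os03t0188500-01 had 97 reads in the control, then 31, 670 and 1407 after 1, 2 and 3 d. At 3 d its log2 ratio was 3.85 (3.56 to 4.17), and that of another glutelin family locus, Os01t0111900-01, was 0.12 (-0.09 to 0.33). The glutelin type II precursor Os10t0400200-01 had 314 reads in the control and fell to 88 at 3 d, a log2 ratio of -1.84 (-2.20 to -1.49). Os05t0329400-00, similar to prolamin, had 234 reads in the control and fell to 49, with a ratio of -2.26 (-2.74 to -1.81). Its sequence has 10332 bases, and the other prolamin loci that fell, Os05t0330150-00 and Os12t0269600-00, have 57648 and 3765. Most other loci annotated as prolamin are far shorter. Whether the reads on these long sequences come from prolamin was not tested. Whether these genes move with TIP3 was not tested.

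TIP4-1 (Os05t0231700, chromosome 5) fell at 2 d, when the TIP1 pair rose. It had 6696 reads in the control, then 12759, 3089 and 5962 reads after 1, 2 and 3 d, or 118.0, 242.4, 51.2 and 104.8 CPM. The 1 d library was the highest and the 2 d library the lowest, with 3 d near the control. The log2 ratio was 1.04 (1.00 to 1.08) at 1 d and -1.20 (-1.27 to -1.14) at 2 d. Both lie near the 2-fold line, with 0.93 at 1 d without scaling, and -0.88 (TMM) and -0.84 (size factors) at 2 d. At 3 d it was -0.17 (-0.22 to -0.12), which becomes 0.55 under TMM and 0.69 under size factors. From 1 d to 2 d TIP4-1 fell by 2.24 on the log2 scale and from 2 d to 3 d it rose by 1.03. Among rows with reads in the 3 drought libraries, 3.25% fell and then rose by at least 2-fold in these steps.

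TIP5;1 (Os04t0550800, chromosome 4), annotated as a major intrinsic protein family protein, had 0 reads in each of the 4 libraries. That allows up to 0.0570 CPM at 1 d, 0.0497 CPM at 2 d and 0.0527 CPM at 3 d, and 0.0529 CPM in the control. Of 35 loci with pollen in their annotation and a ratio at 3 d, 11 rose and 9 fell, beside 20.2% and 46.9% of all rows, with a median log2 ratio of -0.46. Under TMM 14 rose and 8 fell, under size factors 15 rose and 7 fell, and the median is then above 0.

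**Figure D2:**
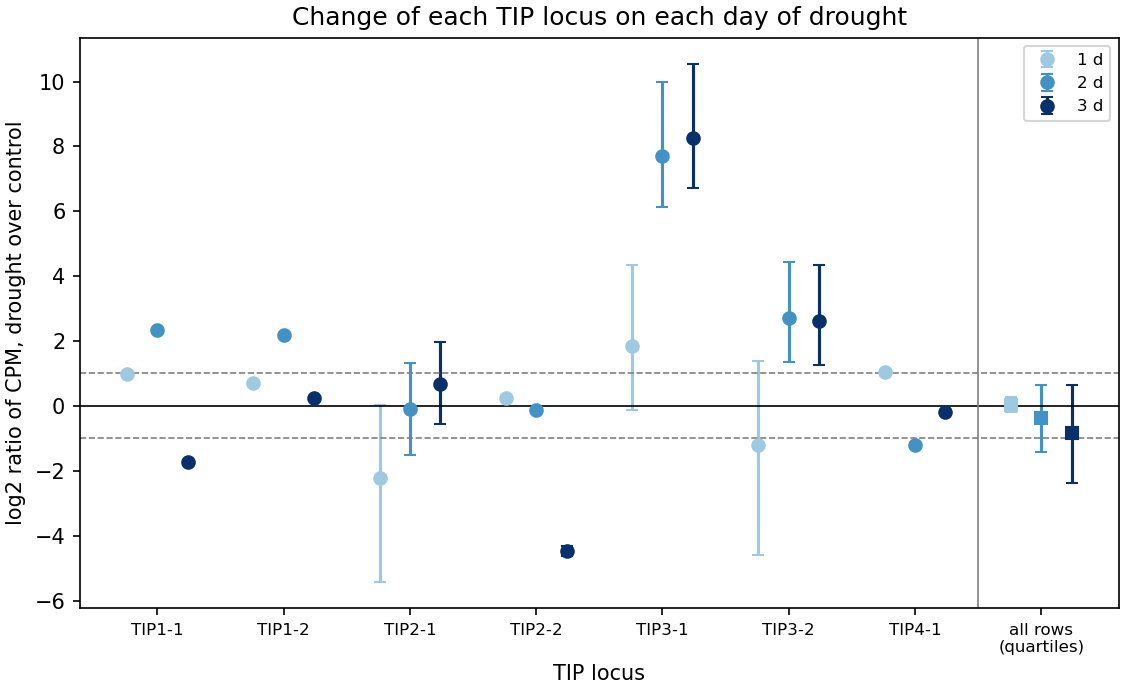
log2 ratio of CPM over the control for each TIP locus with reads at 1, 2 and 3 d, with bars for the exact 95% counting interval, and at the right the median of all rows of the table with bars for its quartiles. Dashed lines mark 2-fold changes. TIP3-1 reaches 8.27 and TIP2-2 falls to -4.47 at 3 d, while all rows have medians of 0.03, -0.38 and -0.83 at 1, 2 and 3 d.

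Counted by transcript row, rises were most frequent at 2 d, while falls at 3 d stood near the share over all rows. At 1 d 2 of 11 rows with reads in both libraries rose (TIP3-1 and TIP4-1) and 2 fell (TIP2-1 and TIP3-2), against 5.6% and 4.3% of all rows. Of these 4 only the rise of TIP4-1 had a counting interval without no change. At 2 d 7 of 11 rows rose and 1 fell, against 19.2% and 34.4% of all rows, and the median over the TIP rows was 2.23 against -0.38 over all rows. At 3 d 2 rows rose and 5 fell, against 20.2% and 46.9% of all rows, with a median of -0.17 against -0.83. Rows of 1 locus may share reads and are not separate genes. The 7 rises at 2 d are 4 loci and the 5 falls at 3 d are 2 loci, of 7 with a ratio. The 4 loci that rose at 2 d were TIP1-1, TIP1-2, TIP3-1 and TIP3-2, and each did so under all 4 scalings. Under TMM 4 rows rose and 4 fell at 3 d, and under size factors 5 rose and 2 fell. Relative to the median of all loci at 3 d, TIP2-2 lay at -3.61, TIP1-1 at -0.88, TIP4-1 at 0.69, TIP1-2 at 1.09, TIP3-2 at 3.49 and TIP3-1 at 9.13.

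Between neighbouring days more TIP rows rose than fell at 2 d, and more fell than rose at 3 d. At 2 d over 1 d, 8 of 11 rows rose and 1 fell, against 19.8% and 35.4% of all rows. The rises include TIP2-1, which had 10 reads at 2 d and 2 at 1 d and an interval that includes no change (-0.11 to 5.36). At 3 d over 2 d, 1 row rose and 7 fell, against 10.9% and 30.5% of all rows. The 7 rows are those of TIP1-1, TIP1-2 and TIP2-2, and the row that rose is TIP4-1. Counted by locus, 5 of 7 rose and 1 fell at 2 d over 1 d. At 3 d over 2 d 1 of 7 loci rose and 3 fell, with a median log2 ratio of -0.09.

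The summed reads of all TIPs followed TIP1. They numbered 43054 in the control, then 66613, 148641 and 31620 after 1, 2 and 3 d, which is 0.0759%, 0.127%, 0.246% and 0.0556% of the libraries. The log2 ratio of the sum was 0.74 (0.72 to 0.76) at 1 d, 1.70 (1.68 to 1.71) at 2 d and -0.45 (-0.47 to -0.43) at 3 d. The sign at 3 d depends on scaling, since it is 0.27 under TMM and 0.41 under size factors. Without TIP1-2 the sum had log2 ratios of 0.76, 1.21 and -1.30, and the loci other than TIP1 had 0.63, -0.40 and -1.10 at 1, 2 and 3 d. The rise of the sum at 2 d was in the TIP1 reads.

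The make-up of the TIP reads changed with it. TIP1-2 held 42.5% of the TIP reads in the control, then 41.4%, 59.0% and 68.2% after 1, 2 and 3 d. TIP1-1 held 21.0% in the control and 24.7%, 32.5% and 8.58%. Together the TIP1 pair had 63.5% in the control and 91.5% at its highest, at 2 d. TIP2-2 went the other way, with 20.9% in the control, then 14.8%, 5.96% and 1.29% after 1, 2 and 3 d. TIP4-1 held 15.6% in the control, 19.2% at 1 d, 2.08% at 2 d and 18.9% at 3 d. TIP3-1, at 0.00697% in the control, held 2.94% at 3 d (exact 95% interval 2.76% to 3.13%). These shares also sum the rows of a locus, and would differ if reads were counted on more than 1 row.

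**Figure D3:**
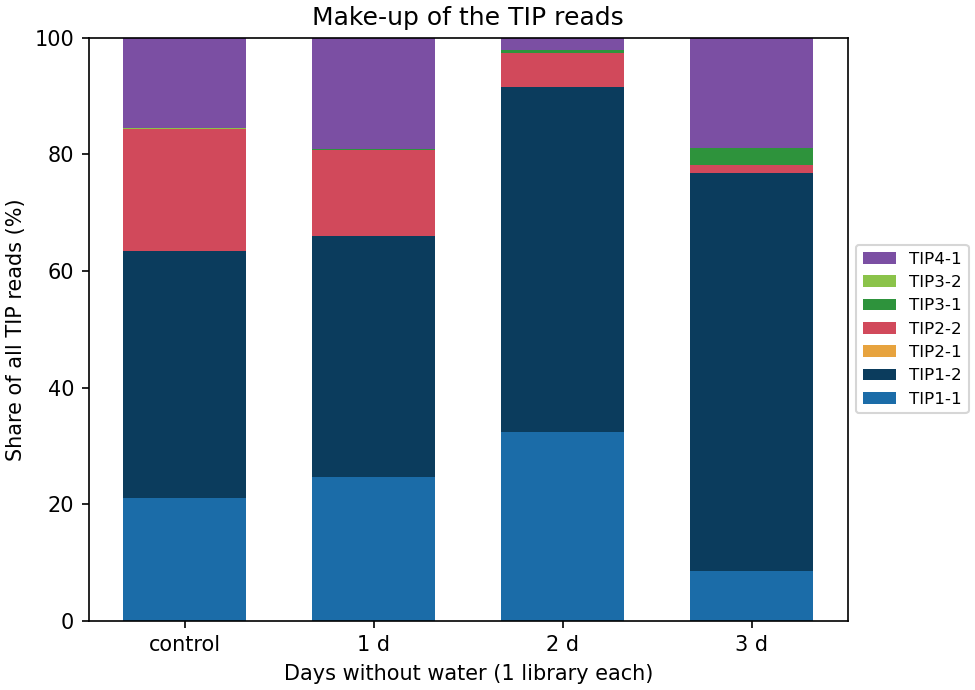
Share of all TIP reads held by each locus (stacked bars, percent) in the control and at 1, 2 and 3 d, 1 library each. The TIP1 pair takes 91.5% of the reads at 2 d, TIP2-2 shrinks to 1.29% at 3 d, and TIP3-1 becomes visible with 2.94% at 3 d.

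Levels of different TIPs were compared per kilobase of the longest gene sequence of each locus in the table, whose length can include introns. In the control the order was TIP1-2 (226.0 CPM per kilobase), TIP2-2 (113.7), TIP1-1 (86.9) and TIP4-1 (52.0). TIP2-1, TIP3-2 and TIP3-1 followed at 0.178, 0.0692 and 0.0381, and their counting intervals overlap, so these 3 have no order. At 1 d TIP1-1 (170.1) had passed TIP2-2 (133.9), with TIP1-2 at 367.4 and TIP4-1 at 106.7. At 2 d TIP1-2 (1020) and TIP1-1 (436.0) were followed by TIP2-2 (105.1), TIP4-1 (22.5) and TIP3-1 (7.89). At 3 d the order was TIP1-2 (265.7), TIP4-1 (46.1), TIP1-1 (26), TIP3-1 (11.8) and TIP2-2 (5.13), and no 2 of the counting intervals of these sums overlap. The levels of TIP1-1, TIP1-2 and TIP2-2 sum several rows over 1 length, and are too high if a read was counted on more than 1 row. By its first row alone TIP1-1 had 11.8 at 3 d, level with TIP3-1. In the control and at 1 d that row had 38.4 and 74.4, below TIP4-1. By the summed rows the second place fell to TIP2-2 in the control, to TIP1-1 at 1 and 2 d and to TIP4-1 at 3 d, an order that depends on how reads were placed. TIP3-2 (0.428) and TIP2-1 (0.284) came last at 3 d, with intervals that overlap.

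Rows of 1 locus moved nearly alike. For TIP2-2 the first row held 50.8% of the locus reads in the control, then 50.6%, 51.0% and 51.2% after 1, 2 and 3 d, and the 4 intervals overlap. For TIP1-1 the shortest row (Os03t0146100-05, 551 bases) held 12.1% in the control and 12%, 11.4% and 11.6%. For TIP1-2 the first row held 52.8% in the control and 52.3% at 1 d, but 54.9% and 55.4% at 2 and 3 d, and the intervals of the later pair lie above those of the earlier pair. How the mapper placed reads that fit several rows of a locus is not given in the sources used here, and the rows are not read as separate measures of isoforms.

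In addition to the 8 members, 4 loci carry tonoplast intrinsic protein annotations. Os05t0231600-01, the identifier before TIP4-1, had 1923 reads in the control, then 3564, 946 and 1947 after 1, 2 and 3 d, the closest pattern to TIP4-1 of 18334 named rows. The measure is the root mean square difference of the 3 log2 ratios, here 0.12. Of the reads on the pair it held 21.8% to 24.6% in every library. Os10t0492500-01, the identifier before TIP3-1 and annotated like it, had 3 reads in the control, then 4, 495 and 649. The log2 ratio reached 7.28 at 2 d and 7.75 (6.20 to 10.03) at 3 d. It held 42.9% of the reads on that pair at 2 d and 41.1% at 3 d. Whether such neighbours share reads with TIP4-1 and TIP3-1 cannot be seen in the table. Os01t0232100-01, similar to maize ZmTIP4-3, had 10 reads in the control, then 6, 82 and 11, a rise at 2 d (log2 ratio 2.95) that was gone at 3 d (0.13, interval -1.24 to 1.53). Os04t0550900-00, annotated as aquaporin TIP2-3 and next to TIP5;1 by identifier, had no reads.

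Other transcripts with courses like those of the TIPs were found by the same measure over the 3 ratios. For TIP1-1 (Os03t0146100-01) the nearest were Os01t0555200-01, an Asp/Glu racemase family protein, at 0.31, Os12t0503000-01, similar to allantoin permease, which carries a nitrogen-rich product of purine breakdown, at 0.33, and Os02t0629200-02, similar to the barley plasma membrane aquaporin HvPIP2;1, at 0.36 (its annotation has none of the words of the aquaporin list). The last had 2526 reads in the control, then 3563, 9948 and 935 after 1, 2 and 3 d. Only 4 of the 18334 rows lay within 0.5 of that TIP1-1 row, against 89 for TIP1-2 (Os01t0975900-01), 27 for TIP2-2 (Os06t0336200-01), 20 for TIP3-1 and 59 for TIP4-1. Closest to TIP1-2 were Os05t0208550-00, similar to a gibberellin 2-beta-dioxygenase, at 0.14 for its first row, and Os08t0460600-01, similar to cytokinin dehydrogenase 11, at 0.07 for its second. These enzymes break down gibberellin and cytokinin. The rest of the nearest to TIP1-2 have other annotations. Os03t0701100-01, similar to a Prp18 domain protein, lay at 0.16 for the first row and 0.17 for the second. Os11t0707600-01, similar to a sterol 4-alpha-methyl-oxidase, lay at 0.18 for the first, and Os08t0465700-01, a cytochrome P450, at 0.14 for the second. For TIP3-1 the nearest were Os03t0852800-00, similar to a nonspecific phospholipase C, at 0.17, Os05t0572700-02, similar to a protein phosphatase 2C, at 0.18, and Os04t0486950-01, similar to malate synthase of the glyoxylate cycle, at 0.20. The malate synthase row had 50 reads in the control, then 146, 10835 and 12732 after 1, 2 and 3 d. For TIP2-2 the nearest included an F-box protein (Os11t0593700-01, 0.21) and a lipid transfer protein domain protein (Os03t0804200-01, 0.21). With 3 ratios that share 1 control, likeness describes these libraries only.

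Among the 5 loci with at least 100 reads, the nearest pair was TIP1-1 and TIP1-2 at 1.15 on the same measure. The farthest was TIP2-2 and TIP3-1 at 8.68. These values cannot be set against those of the nearest neighbours, which are the smallest over 18334 rows.

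The other plant aquaporins include plasma membrane (PIP) channels, which pass water into the cell, and NOD26-like (NIP) channels, some of which pass silicon in rice. The annotation lists 23 such loci, 19 with at least 10 reads. At 2 d 7 of 19 rose and 6 fell, beside 19.2% and 34.4% of all rows (median log2 ratio -0.15). At 3 d 2 of 18 rose and 7 fell, beside 20.2% and 46.9% of all rows (median 0.31). The counts at 3 d depend on scaling, with 9 rises and 5 falls under TMM and 10 and 5 under size factors. Os07t0448800-01, annotated only as an aquaporin, had 2720 reads in the control, then 3761, 23143 and 6989 after 1, 2 and 3 d. At 3 d that gives a log2 ratio of 1.36 (1.29 to 1.42). Os09t0541000-01, similar to aquaporin 2, had 17519 reads in the control, then 16443, 1216 and 720. Its log2 ratio was -4.61 (-4.72 to -4.50) at 3 d. Os01t0232000-00, a major intrinsic protein family protein, had 383 reads in the control, then 461, 36 and 7, with a log2 ratio of -5.78 (-7.10 to -4.72) at 3 d. Its annotation is worded like that of TIP5;1 and gives no subfamily, so it may be a TIP. Os05t0205050-00, an isoform of the NIP channel NIP1-3, reached 0.80 (0.48 to 1.12) at 3 d. The summed level of the list had its maximum at 2 d like that of the TIPs, with 1600 CPM at 2 d and 443.1 CPM at 3 d, against 772.2 CPM in the control.

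The vacuolar proton pumps, which acidify the vacuole and drive solute uptake across the same membrane, were highest as a sum at 3 d, when the TIP1 pair had dropped. Of 25 loci, 7 rose and 1 fell at 2 d, beside 19.2% and 34.4% of all rows (median log2 ratio 0.57). At 3 d 10 rose and 3 fell, beside 20.2% and 46.9% of all rows (median 0.64). Under TMM 11 rose at 2 d and 16 at 3 d, and under size factors 11 and 17, with the same number of falls. Their summed level was 1337 CPM in the control, then 1252, 2300 and 2743 CPM after 1, 2 and 3 d. The V-ATPase B subunit locus Os01t0711000-01 had 2081 reads in the control, then 1952, 11537 and 15598 reads after 1, 2 and 3 d. At 3 d this was a log2 ratio of 2.90 (2.84 to 2.97), and the proteolipid subunit locus Os12t0168900-01 had 2.13 (2.06 to 2.21). The vacuolar proton pyrophosphatase locus Os02t0184200-01 had 6063 reads in the control, then 4358, 654 and 321. Its log2 ratio was -4.24 (-4.41 to -4.08) at 3 d, and that of Os05t0487600-02, similar to another V-ATPase B subunit, was -2.62 (-2.94 to -2.32). Of the other vacuolar transporters found by words, the Na+/H+ antiporter Os07t0666900-01, which loads sodium into the vacuole, had 457 reads in the control, then 583, 19393 and 10797. Its log2 ratio was 5.32 at 2 d and 4.56 (4.42 to 4.70) at 3 d, with its highest level at 2 d. The other was Os04t0382700-02, annotated as vacuolar protein sorting 11, with a log2 ratio of -1.74 at 3 d. The tonoplast monosaccharide transporters Os02t0229400-01 and Os10t0539900-01, named after their values were seen, had log2 ratios of -3.39 and -2.90 at 3 d.

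**Figure D4:**
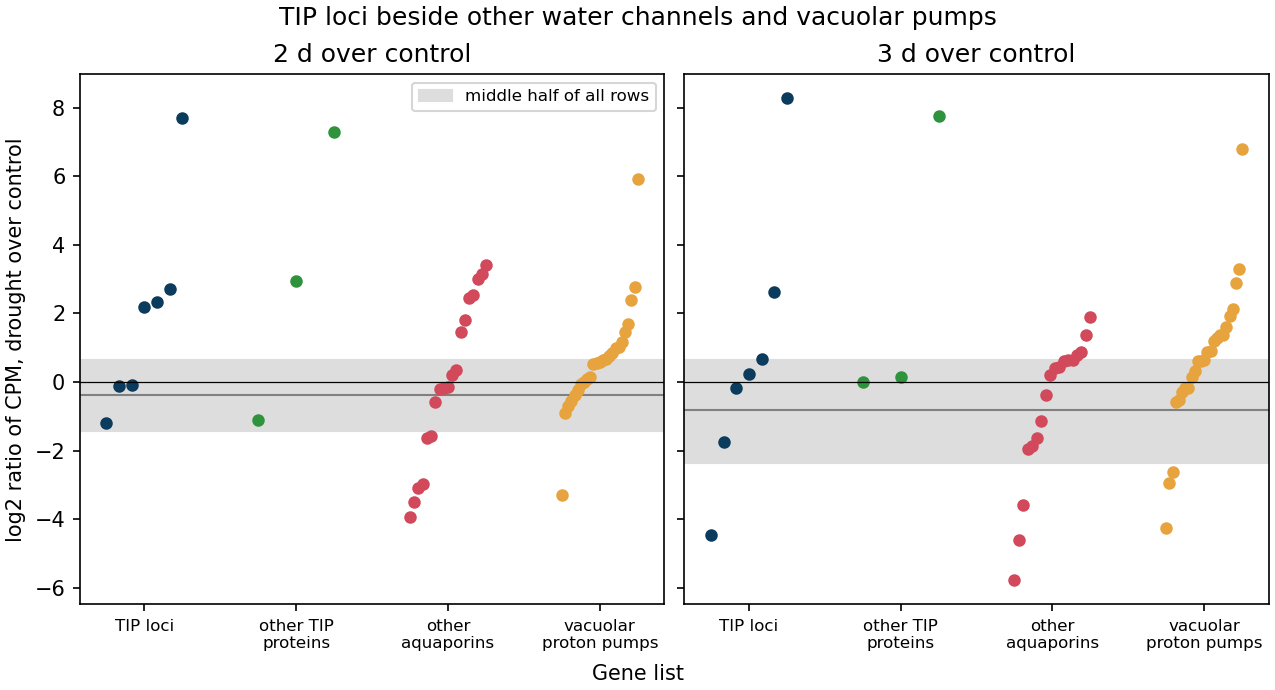
log2 ratio of CPM over the control at 2 d (left) and 3 d (right) for TIP loci, other loci annotated as tonoplast intrinsic proteins, other aquaporins and vacuolar proton pumps. Each point is 1 locus, sorted within its list, and the grey band spans the quartiles of all rows (-1.43 to 0.65 at 2 d and -2.36 to 0.64 at 3 d). The TIP loci spread between -4.47 and 8.27 at 3 d.

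The labelled tissue was checked with leaf markers. These are 24 loci whose annotation names a chlorophyll a/b-binding protein or the Rubisco small subunit, 1 of them (Os02t0725200-02) a methyltransferase that acts on that subunit. They summed to 18701 CPM in the control, then 19022, 3386 and 578.3 CPM after 1, 2 and 3 d. At 3 d each of the 20 with at least 10 reads had fallen (19 under TMM and 19 under size factors), beside 46.9% of all rows. The 3 loci annotated as root-specific summed to 0.546 CPM at most, in the control. The TIP1 rise at 2 d stood beside a fall of 16 of the 20 leaf markers, against 34.4% of all rows. What part the loss of leaf transcripts has in the CPM of other genes was not tested.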

How the data were processed

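Leaf RNA of 4 pooled samples (control, 1, 2 and 3 d of drought, 10 plants each, 1 library per condition) was sequenced single-end. The authors trimmed reads below Q20, removed duplicates with FastUniq and mapped with clc_ref_assemble (version 4.06) to RAP-DB gene sequences (IRGSP 1.0), and deposited raw read counts per gene sequence, which were used here. Removing duplicates can lower the counts of abundant transcripts. Libraries were strand-specific, but whether counting used strand, and where reads that fit several sequences went, are not given in the sources used here. Counts of transcripts of 1 locus, of near-identical copies and of overlapping or antisense genes are therefore uncertain. The deposited gene length, in bases, served only for levels per kilobase. Deposited columns called RPKM, and log2 ratios of the authors' own comparisons, were not used, nor were the noncoding RNA tables.

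Counts were divided by the column sum, and log2 ratios taken where both libraries had reads. Intervals are Clopper-Pearson (95%, scipy 1.17.1). Calculations used Python 3.11.15, numpy 2.4.6, pandas 2.3.3, matplotlib 3.10.9, R 4.3.3, edgeR 4.0.16 and DESeq2 1.42.0, the last 2 for scaling factors only. Ratios and intervals were tested on simulated counts. Lists were made from annotation words, with 1 transcript (most reads) per locus and at least 10 reads over the 4 libraries, and the list of other TIPs left out TIP41-like, TIP49 and STIP1 entries. A locus can pass this minimum through its drought reads alone, which favours rises in the lists, and the shares over all rows have no such minimum. The rule for naming took every locus of the list of other TIPs, and from each further list the 2 largest rises and falls at 3 d whose mean was 100 reads or more. Those of the leaf, pollen and root lists are left out of the text. Pattern neighbours are the 3 nearest rows with that mean, reads in all 4 libraries and an annotation naming a protein. The members and lists were chosen with earlier results of these data known. Alternatives were other scalings, 1 read added to both counts, a minimum of 10 reads, a counting interval without no change, and rows summed per locus.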

Additional observations from a re-analysis of the deposited data

Results flagged for a closer look

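Opposite changes of at least 2-fold on different days were found for 3 TIP loci, and these differences were not tested, since each day has 1 library and all days share the control. TIP1-1 had a log2 ratio of 2.33 at 2 d and of -1.74 at 3 d. TIP4-1 had a log2 ratio of 1.04 at 1 d and of -1.20 at 2 d, both near the 2-fold line. TIP3-2 had a log2 ratio of -1.21 at 1 d, on 2 reads at 1 d against 5 in the control, and of 2.72 at 2 d and 2.63 at 3 d.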

How the results depend on the processing

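No paired analysis was possible because each condition has 1 library. No replicate could be left out for the same reason. The order by coding length was not run, since no protein sequences were used here. Of 33 log2 ratios of single TIP rows, the scaling to mapped reads and TMM put 4 on different sides of a 2-fold line and 4 on different sides of 0. Under DESeq2 size factors these numbers were 7 and 4, without scaling 1 and 0, and with 1 read added 1 and 0. At 1 d the 2 rises became 1 without scaling and 1 with the counting interval required, and the 2 falls became 1 with 1 read added, 1 with at least 10 reads and 0 with the counting interval. At 2 d the 7 rises of 11 rows became 4 of 7 loci with rows summed per locus, which changes the unit and loses no locus. The 1 fall became 0 under TMM and 0 under size factors. At 3 d the 2 rises became 4 under TMM and 5 under size factors, and the 5 falls became 2 under size factors. With rows summed per locus the 5 falls of 11 rows are 2 of 7 loci, again a change of unit. The summed TIP reads had log2 ratios of 0.63 at 1 d and 1.79 at 2 d without scaling. Under TMM the values were 2.03 and 0.27 at 2 and 3 d. Under size factors the values were 2.06 and 0.41. Leaving aside the transcript with the most reads they had 1.5 at 2 d and -0.77 at 3 d. The cause was not tested beyond what each alternative does by construction. Depth limits TIP2-1, TIP3-2 and the control value of TIP3-1, which rest on 10, 5 and 3 control reads.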
